A study of Mus musculus with 20 samples.

Results

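This report follows 10 genes that mark macrophages through RNA-seq libraries of cultured mouse cardiac fibroblasts. The genes were taken from the table of raw counts by name and not by a threshold on their values, and they are 10 of its 55414 Ensembl gene identifiers. All 10 had a row. Of these, 9 passed the filter on low counts and were tested among 15624 genes, and Cd163 did not pass it.

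The libraries came from heart fibroblasts of Hyal2fl/fl mice, whose Hyal2 gene (a hyaluronidase) is flanked by loxP sites, although the genotype label reads wild type C57BL/6J. Cells at passage P2 went without serum for 24 h before an adenovirus was added for 5 h, and were then cultured with growth factor (20 ng/mL) during the last 48 h. There were 5 groups of 4 libraries, written here as GFP + TGFB (control virus with TGFB), Cre + TGFB (Cre virus, labelled as a knockout of exon 2 of Hyal2, with TGFB), Cre (the same virus without TGFB), Hyal2 (virus overexpressing Hyal2) and GFP (control virus alone). Every culture, controls included, therefore carried the floxed allele, an adenovirus and the serum starvation. The labels do not settle whether the cultures without TGFB received bFGF in its place, so the TGFB comparisons may also be comparisons with bFGF. Replicates 1 and 2 of each group were labelled female and replicates 3 and 4 male. The library names carry the same prefix for each replicate number, so each number is treated as 1 cell isolate. The labels do not say whether an isolate was a single animal or a pool of hearts.

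Macrophages are the phagocytes that live in every tissue, the heart included, and they are a common companion of fibroblasts taken from digested tissue by adherence. They depend on signalling through the receptor encoded by Csf1r, whose ligands Csf1 and Il34 are made by fibroblasts and other stromal cells. They carry the pan-leukocyte phosphatase CD45 (Ptprc), scavenger and lectin receptors, Fc receptors, lysozyme and the chains of complement C1q. TGFB is a cytokine that drives fibroblasts toward a contractile, matrix-producing state and also acts on macrophages.

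Library totals ranged from 38.6 to 104.8 M counts, so that 3 counts, taken as the floor of detection, corresponded to 0.0286 to 0.0777 CPM. CPM are counts per 1e6 counts after scaling with TMM factors, which correct for differences in library composition. Hyal2 itself was at 5.37 to 9.14 CPM in Cre + TGFB libraries against 33.4 to 41.1 CPM in GFP + TGFB libraries, and at 7.62 to 13.5 CPM in Cre libraries and 399 to 1419 CPM in Hyal2 libraries against 36.6 to 44.5 CPM in GFP libraries, so that 0 libraries went against their labels. Defining genes of fibroblasts were abundant: 12 of them (collagens, Pdgfra, Tcf21, Lum and others) together held 40148 to 49808 CPM in GFP + TGFB libraries and 45075 to 67771 CPM in GFP libraries. The 10 macrophage genes together held 123 to 298 CPM in GFP + TGFB libraries, 114 to 288 in Cre + TGFB, 179 to 464 in Cre, 185 to 419 in Hyal2 and 206 to 480 in GFP libraries, and Lyz2 made up most of these sums.

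Transcripts of 9 of the 10 genes were present in all 20 libraries. Their smallest count was 23, for Mrc1, and their largest was 33559, for Lyz2. Cd163 (ENSMUSG00000008845), a haemoglobin scavenger receptor of some tissue macrophages, was the exception. It had 0 to 3 counts per library and 13 counts over all 20 libraries, and no library exceeded the floor of 3 counts. Its highest level was 0.0727 CPM, in a Hyal2 library, and no fold change is given for it.

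Levels of different genes were compared per kilobase of exon, with lengths from the GENCODE annotation of the build GRCm38. Lyz2 (ENSMUSG00000069516), which encodes the lysozyme of myeloid cells, stood at 113 CPM per kb in GFP + TGFB cultures and 170 CPM per kb in GFP cultures. C1qa (ENSMUSG00000036887), which encodes a chain of the complement component C1q made largely by macrophages, came next at 16.7 and 32.2 CPM per kb in the same groups. The endosomal glycoprotein gene Cd68 (ENSMUSG00000018774) was at 4.58 CPM per kb in GFP + TGFB and 8.73 in GFP cultures, and the Fc receptor gene Fcgr3 (ENSMUSG00000059498) at 3.46 and 4.13. At the other end, the CD45 gene Ptprc (ENSMUSG00000026395) was at 0.0949 CPM per kb in GFP + TGFB and 0.178 in GFP cultures. The same 4 genes led in Cre + TGFB, Cre and Hyal2 cultures, and Ptprc was the lowest of the tested members in all 5 groups.

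Lyz2 has a near-identical copy, Lyz1, at 0.259 to 1.13 CPM over all libraries, and Fcgr3 belongs to a family of similar receptors whose members Fcgr2b and Fcgr4 reached 4.87 and 0.978 CPM. The counting could have split reads between such copies, and the levels of Lyz2 and Fcgr3 are uncertain to that extent. Exons of Csf1r overlap those of Hmgxb3 on the opposite strand in the GRCm38 annotation. Hmgxb3 was at 32.4 to 60.4 CPM. The strand setting of the counting is not given in the sources used here, so reads of the 2 genes in that overlap cannot be told apart.

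**Figure D1:**
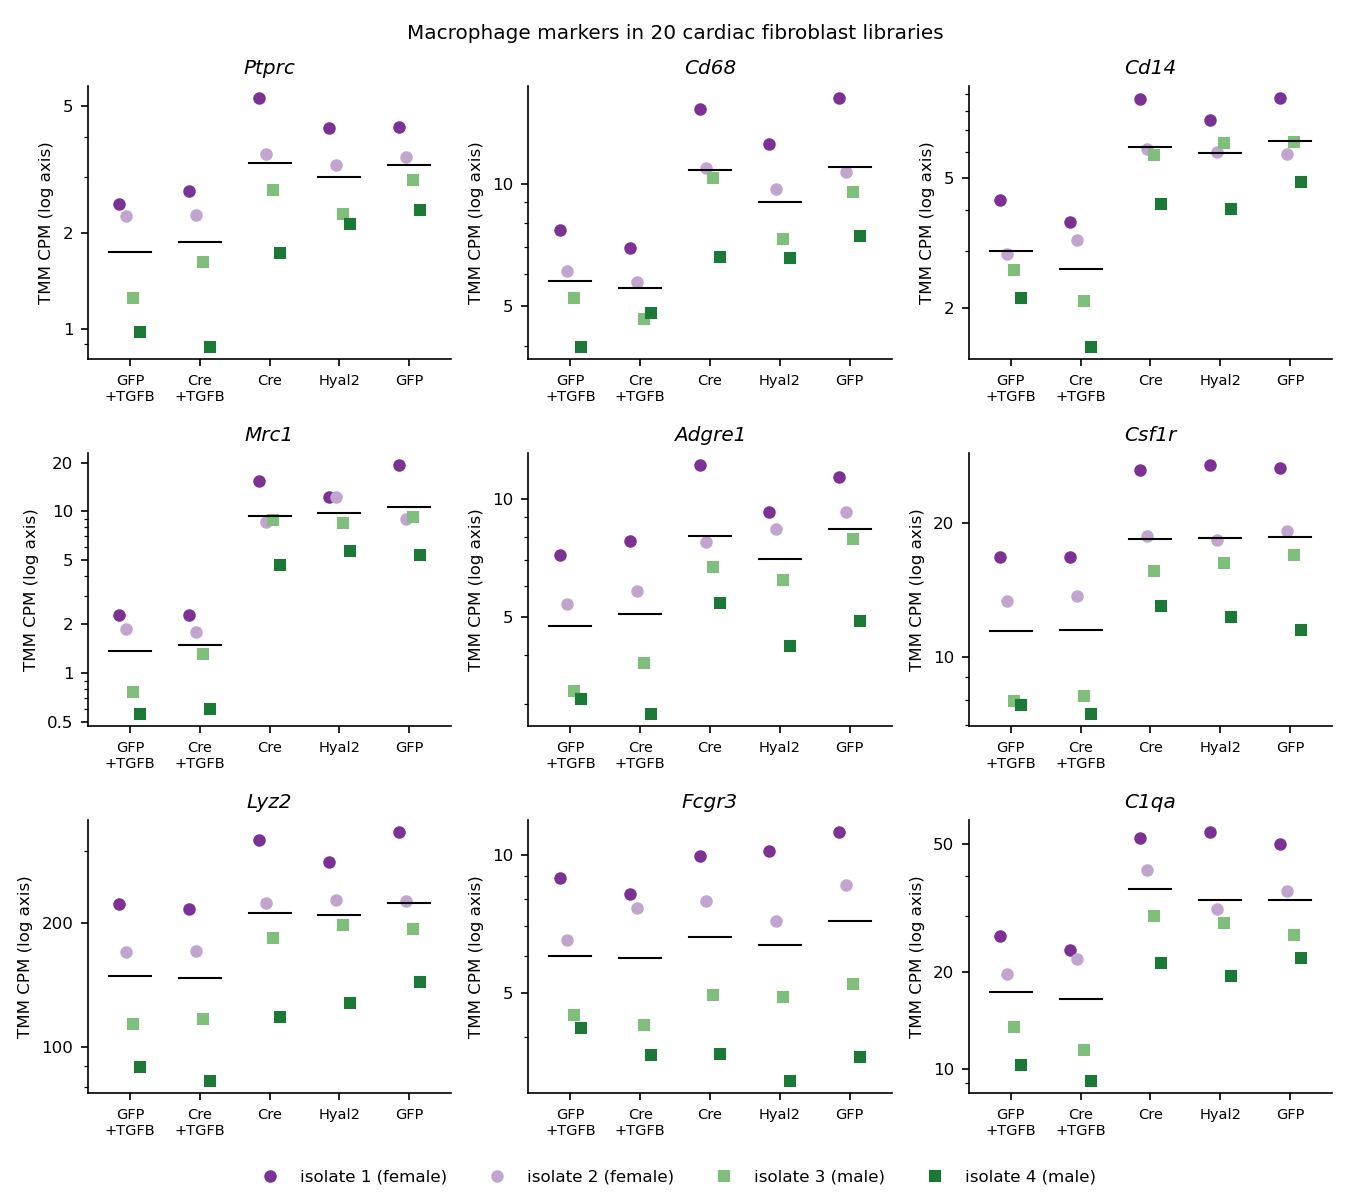
TMM-scaled CPM (log axis) of the 9 tested macrophage markers in each of the 20 libraries, by group. Points are libraries coloured by isolate (circles female, squares male) and bars are group means of 4 libraries; Mrc1 was at 0.562 to 2.3 CPM in GFP + TGFB and at 5.36 to 19.2 CPM in GFP libraries, while the groups overlapped for Fcgr3.

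With TGFB the mannose receptor gene Mrc1 was far lower, and 4 further members fell by about the same smaller amount. In GFP + TGFB against GFP cultures, Mrc1, Cd14, C1qa, Cd68 and Ptprc fell, that is 5 of the 9 tested members, against 28.6% of all genes tested that fell at an edgeR adjusted p under 0.05. None rose, where 26.6% of all genes did. Over the 9 members the median log2 fold change was -0.90, against -0.02 over all genes tested. With the isolate as a block in the fit, which takes the differences between isolates out of the error, 8 of 9 fell against 32.1% of all genes, and Fcgr3 alone did not pass. In these bulk libraries, fewer macrophages in a culture and less of these RNAs per macrophage cannot be told apart.

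Mrc1 (ENSMUSG00000026712) encodes CD206, an endocytic receptor for mannose-bearing glycoproteins that marks many tissue-resident macrophages. It had 2.3, 1.88, 0.765 and 0.562 CPM in GFP + TGFB cultures of isolates 1 to 4, against 19.2, 8.99, 9.21 and 5.36 CPM in GFP cultures of the same isolates. Every GFP + TGFB library lay below every GFP library. The fitted level was 7.66-fold lower (log2 fold change -2.94, SE 0.49, edgeR adjusted p = 4.77e-05), and the difference was between -2.25 and -3.59 on the log2 scale in the 4 isolates.

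Cd14 (ENSMUSG00000051439) encodes a coreceptor for bacterial lipopolysaccharide. It was at 4.28, 2.94, 2.63 and 2.15 CPM in GFP + TGFB cultures, against 8.75, 5.93, 6.42 and 4.85 CPM in GFP cultures. Cd14 and Mrc1 were the 2 of 9 members whose groups did not overlap, where 25.5% of all genes were lower without overlap. Cd14 was 2.17-fold lower (log2 fold change -1.12, SE 0.28, edgeR adjusted p = 0.00245).

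C1qa had 25.9, 19.7, 13.5 and 10.3 CPM in GFP + TGFB cultures, against 50.1, 35.8, 26.1 and 22.1 CPM in GFP cultures of isolates 1 to 4. The groups overlapped because the GFP + TGFB library of isolate 1 lay above the GFP library of isolate 4, yet C1qa was lower in 4 of 4 isolates. It was 1.93-fold lower (log2 fold change -0.95, SE 0.38, edgeR adjusted p = 0.0386). Without the GFP library of replicate 1 the adjusted p was 0.148, and the removal of GFP replicate 2 or of GFP + TGFB replicate 2, 3 or 4 also took it above 0.05.

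Cd68 was at 7.7, 6.11, 5.25 and 3.98 CPM in GFP + TGFB cultures, against 16.2, 10.7, 9.55 and 7.45 CPM in GFP cultures. Only the GFP + TGFB library of isolate 1 reached into the range of the GFP libraries. Cd68 was 1.91-fold lower (log2 fold change -0.93, SE 0.27, edgeR adjusted p = 0.00669), and its decrease in the single isolates ran from -0.81 to -1.07 on the log2 scale. Ptprc had 2.47, 2.26, 1.25 and 0.977 CPM in GFP + TGFB cultures, against 4.29, 3.47, 2.93 and 2.37 CPM in GFP cultures. Its call was close to the threshold (log2 fold change -0.90, SE 0.37, edgeR adjusted p = 0.046) and did not hold without any of several single libraries, with 0.139 as the adjusted p without GFP + TGFB replicate 4.

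Adgre1, Csf1r, Lyz2 and Fcgr3 did not pass in the fit without the block. Csf1r (ENSMUSG00000024621), the receptor on which macrophage survival depends, was at 16.7, 13.3, 7.93 and 7.76 CPM in GFP + TGFB cultures, against 26.6, 19.2, 16.9 and 11.5 CPM in GFP cultures. It was lower in 4 of 4 isolates, with overlapping groups, since isolate 1 was 2.31-fold above isolate 4 within GFP cultures alone. In the fit without the block it differed by -0.70 on the log2 scale, with SE 0.32 and an edgeR adjusted p of 0.0722. With the block the value was -0.71 (SE 0.09, edgeR adjusted p = 2.05e-06).

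Adgre1 (ENSMUSG00000004730), which encodes the classical mouse macrophage antigen F4/80, was at 7.18, 5.41, 3.24 and 3.08 CPM in GFP + TGFB cultures, against 11.4, 9.26, 7.93 and 4.89 CPM in GFP cultures. It differed by -0.82 on the log2 scale (SE 0.35, edgeR adjusted p = 0.0535), and by -0.84 (SE 0.11, edgeR adjusted p = 2.42e-06) with the block. Lyz2 had 223, 170, 114 and 89.6 CPM in GFP + TGFB cultures, against 332, 226, 193 and 144 CPM in GFP cultures. The groups overlapped for both genes. Lyz2 differed by -0.59 on the log2 scale (SE 0.35, edgeR adjusted p = 0.161) without and -0.61 (SE 0.07, edgeR adjusted p = 5.47e-07) with the block.

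Fcgr3, which encodes a receptor for antibody-coated particles, differed least. It had 8.92, 6.5, 4.46 and 4.18 CPM in GFP + TGFB cultures, against 11.2, 8.6, 5.23 and 3.61 CPM in GFP cultures. It was lower in isolates 1, 2 and 3 and higher in isolate 4. The log2 fold change was -0.26, with a 95% interval from -1.10 to 0.58 (edgeR adjusted p = 0.61), and -0.21 (SE 0.10, edgeR adjusted p = 0.0783) with the block.

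After the Cre virus, 4 of those 5 members were called lower with TGFB in the fit without the block, and Ptprc with the block alone. In Cre + TGFB against Cre cultures Mrc1, Cd14, C1qa and Cd68 fell, 4 of 9 tested members against 29% of all genes that fell, and none rose, where 27.5% of all genes did. The median log2 fold change over the members was -0.82, against -0.00 over all genes tested. With the isolate as a block 8 of 9 fell against 32.6% of all genes, Fcgr3 again being the member that did not pass. All 9 members were lower with TGFB in 4 of 4 isolates, but Fcgr3 was nearly level in isolate 4, at 3.66 CPM in Cre + TGFB and 3.67 CPM in Cre cultures. The share of all genes lower in 4 of 4 isolates was not counted. The libraries of the Cre comparison are separate from those of the GFP comparison but come from the same 4 isolates.

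Mrc1 was at 2.3, 1.8, 1.31 and 0.596 CPM in Cre + TGFB cultures, against 15.4, 8.64, 8.88 and 4.68 CPM in Cre cultures. The groups did not overlap, and the level was 6.14-fold lower (log2 fold change -2.62, SE 0.48, edgeR adjusted p = 0.000118). Cd14 was at 3.68, 3.23, 2.11 and 1.53 CPM in Cre + TGFB cultures, against 8.7, 6.12, 5.89 and 4.17 CPM in Cre cultures, again without overlap. No other member was free of overlap, so the count was 2 of 9 where 26.3% of all genes were lower without overlap.

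Cd14 was 2.35-fold lower (log2 fold change -1.23, SE 0.28, edgeR adjusted p = 0.00101). C1qa was 2.2-fold lower (log2 fold change -1.14, SE 0.38, edgeR adjusted p = 0.0145) and Cd68 1.95-fold lower (log2 fold change -0.96, SE 0.27, edgeR adjusted p = 0.00495). The call of C1qa did not hold without Cre replicate 1 (edgeR adjusted p = 0.0612) or without Cre + TGFB replicate 3 or 4. Ptprc had a log2 fold change of -0.82 (edgeR adjusted p = 0.0612), Csf1r of -0.67 (0.0802), Adgre1 of -0.66 (0.113), Lyz2 of -0.53 (0.207) and Fcgr3 of -0.16 (0.754), where the values in parentheses are also edgeR adjusted p.

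**Figure D2:**
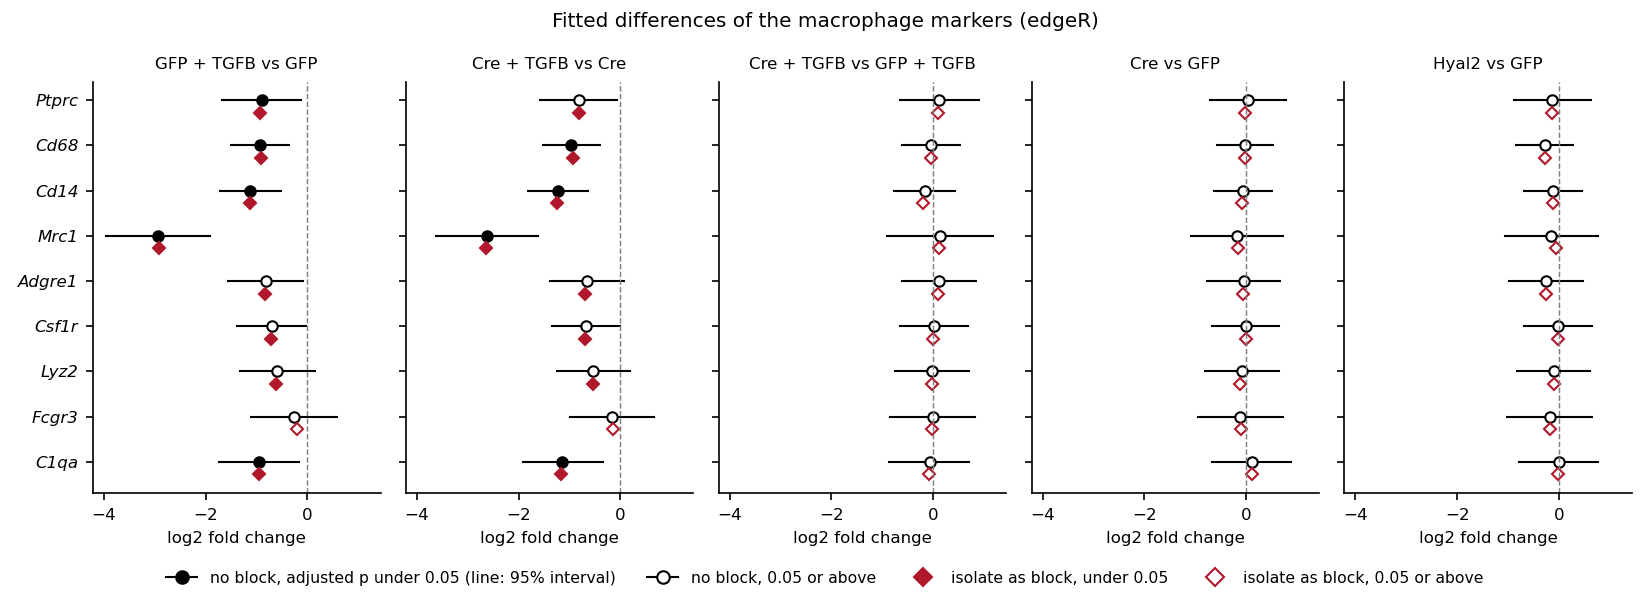
Fitted log2 fold change of each marker (horizontal axis) in 5 comparisons, the first group named over the second. Black circles with 95% intervals are from the fit without a block and red diamonds from the fit with the isolate as a block, filled where the adjusted p is under 0.05; filled symbols appear in the TGFB comparisons alone, with Mrc1 at -2.94 and -2.62.

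The Hyal2 manipulations moved none of the members past the threshold. Between Cre + TGFB and GFP + TGFB cultures 0 of 9 members were called by edgeR, against 0.0064% of all genes, and 0 had an unadjusted p under 0.05. The fitted log2 fold changes lay between -0.17 for Cd14, with a 95% interval from -0.77 to 0.43, and 0.14 for Mrc1, with an interval from -0.90 to 1.18. Over the 9 members the lower ends of the intervals lay between -0.90 and -0.62. Between Cre and GFP cultures 0 of 9 were called, against 0.0064% of all genes, and 0 had an unadjusted p under 0.05. The values ran from -0.18 for Mrc1 (95% interval -1.09 to 0.72) to 0.12 for C1qa (95% interval -0.66 to 0.89).

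Between Hyal2 and GFP cultures 0 of 9 members were called, against 0.0064% of all genes, and again 0 had an unadjusted p under 0.05. All 9 fitted values were at or below 0, the lowest being -0.28 for Cd68 (95% interval -0.84 to 0.27). Cd68 was at 12.5, 9.7, 7.32 and 6.58 CPM in Hyal2 cultures, against 16.2, 10.7, 9.55 and 7.45 CPM in GFP cultures, lower in 4 of 4 isolates, with overlapping groups. Ptprc, Adgre1 and Fcgr3 were also lower in 4 of 4 isolates, but Ptprc was nearly level in isolate 1, at 4.28 CPM in Hyal2 and 4.29 CPM in GFP cultures. Between Cre and GFP cultures 2 of 9 members were lower in 4 of 4 isolates. The share of all genes with such a pattern was not counted for either comparison. The Cre and Hyal2 comparisons share the GFP libraries, and their values are therefore not independent of each other.

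Whether the effect of TGFB differed between Cre and GFP virus was tested as an interaction. It was called for 0 of 9 members, against 0% of all genes, with 0 members at an unadjusted p under 0.05. The fitted difference of the log2 fold changes was largest for Mrc1, at 0.32 (SE 0.66) with a 95% interval from -1.06 to 1.70. With the isolate as a block it was 0.28 (SE 0.26, edgeR adjusted p = 0.825). For C1qa it was -0.19 (SE 0.53) without and -0.20 (SE 0.13, edgeR adjusted p = 0.782) with the block. The intervals given for the virus comparisons and the interaction are from the fit without the block, which leaves the differences between isolates in the error. For these 4 comparisons DESeq2, limma-voom and the edgeR fit with the isolate as a block also called 0 of 9 members. With the block, 0.269% of all genes were called between Cre and GFP cultures.

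The cell isolates differed in every member. All 9 tested members differed between the 4 isolates after the group was taken into account, against 29.7% of all genes, with edgeR adjusted p from 7.31e-10 for Lyz2 to 1.04e-05 for Cd14. The same 9 of 9 were called within the libraries without TGFB alone (45.1% of all genes) and within the libraries with TGFB alone (13.7% of all genes). This test compares 4 isolates through their dishes, with 5 libraries each, and says nothing of how other isolates would spread.

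Csf1r averaged 22.6 CPM in isolate 1, 16.6 in isolate 2, 13 in isolate 3 and 10.4 in isolate 4 over the 5 groups. The ratio of isolate 1 to isolate 4 was 2.15 in GFP + TGFB, 2.25 in Cre + TGFB, 2.02 in Cre, 2.2 in Hyal2 and 2.31 in GFP cultures. Isolate 1 thus held more than 2 times the level of isolate 4 in every group, with TGFB and without it. Over the members the geometric mean of this ratio was lowest for Cd68, at 1.93, and highest for Mrc1, at 3.32.

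Isolate 1 was the highest and isolate 4 the lowest in all 5 groups for Ptprc, Cd14, Adgre1, Csf1r, Lyz2, Fcgr3 and C1qa, which is 7 of 9 members against 0.307% of all genes. For 6 of these, all but Cd14, isolates 2 and 3 also kept their places in between in every group, as did 0.166% of all genes. Mrc1 departed from this in Hyal2 cultures, where isolates 1 and 2 were both at 12.3 CPM, and Cd68 in Cre + TGFB cultures, where isolate 4 was at 4.82 and isolate 3 at 4.65 CPM. The order looked for among all genes was the one the members themselves showed, and the members moved together across libraries. The shares of all genes are therefore a description and not a test.

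Both female isolates lay above both male isolates in every group for 7 of 9 members, namely Ptprc, Cd68, Adgre1, Csf1r, Lyz2, Fcgr3 and C1qa, against 4.1% of all genes. This direction, too, was the one the members showed, so the share of all genes is a description. With 2 isolates of each sex, sex and isolate cannot be told apart. Fcgr3 showed the clearest gap, with 6.5 to 11.2 CPM over all libraries of the female isolates and 3.21 to 5.23 CPM over all libraries of the male isolates, so that these ranges did not overlap even across treatments.

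**Figure D3:**
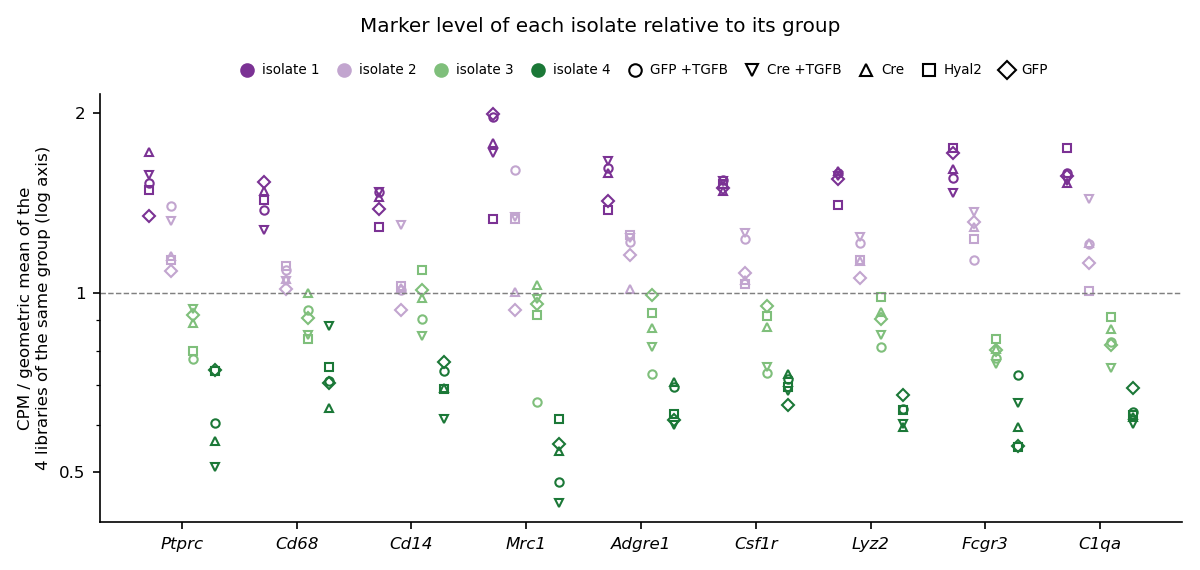
Level of each marker in each isolate, divided by the geometric mean of the 4 libraries of the same group (log axis). Colours are isolates and shapes are groups; isolate 1 lay above isolate 4 in every group and for every marker, by 1.45-fold to 4.1-fold.

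Other cell types also differed between the isolates. All 32 of 32 genes of a wider myeloid list (Tyrobp, Spi1, Laptm5, Mpeg1 and others) were called between isolates, as were 8 of 10 endothelial genes and 9 of 12 fibroblast genes, against 29.7% of all genes. Of the pericyte genes 1 of 5 was called, of the lysosome genes 7 of 13 and of the resident macrophage genes 5 of 9. Both female isolates lay above both male isolates in every group for 17 of 32 wider myeloid, 5 of 10 endothelial and 2 of 12 fibroblast genes. The same held for 3 of 5 genes of monocytes and recruited macrophages but for 0 of 9 resident macrophage genes. Isolate 1 was the highest and isolate 4 the lowest in every group for 10 of 32 wider myeloid, 1 of 9 resident macrophage and 0 of 10 endothelial genes. The wider myeloid genes together held 117 to 236 CPM in GFP + TGFB and 168 to 377 CPM in GFP libraries, and the endothelial genes 31.3 to 40.2 CPM in GFP + TGFB and 49.3 to 61.7 CPM in GFP libraries. Of the 10 endothelial genes 4 fell in GFP + TGFB against GFP cultures and none rose, where 28.6% of all genes fell. Much of the difference in the sum lay in Tek, the angiopoietin receptor gene, at 5.01 ± 0.761 CPM in GFP + TGFB and 20.8 ± 5.02 CPM in GFP cultures (SD, n = 4 each), while Flt1, a VEGF receptor gene, was at 14.8 ± 2.27 CPM in GFP + TGFB and 13 ± 4.29 CPM in GFP cultures and did not pass (edgeR adjusted p = 0.6). The part of these other cell types in the results for the macrophage genes was not tested.

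The members moved together across libraries. Over the 36 pairs of tested members, Pearson's r of log2 CPM over the 20 libraries was between 0.47 and 0.98, with a median of 0.92. After the group means were subtracted it was between 0.87 and 0.98, with a median of 0.94. These values describe 20 libraries that share 4 isolates and carry no p. Genes outside the 10 whose pattern was most like the mean of Ptprc, Adgre1, Csf1r and C1qa were C1qb, Laptm5, C1qc, Adam8, C5ar1, Fcrls, Cyth4, Cd52, Stab1 and Cd300ld, all at r of 0.97 or more over the 20 libraries. C1qb and C1qc encode the other chains of C1q, Laptm5 a lysosomal protein of leukocytes and C5ar1 the receptor for the complement fragment C5a. After subtraction of the group means, Ncf1, Ucp2 and Lcp1 entered this list of 10 in place of Fcrls, Stab1 and Cd300ld.

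Because the members tracked each other, their proportions were compared within each library, with Csf1r as the common denominator, a comparison added after the values were seen. Mrc1 had 0.0723 to 0.142 counts per Csf1r count in GFP + TGFB libraries and 0.0801 to 0.161 in Cre + TGFB libraries, against 0.361 to 0.586 in Cre, 0.455 to 0.671 in Hyal2 and 0.465 to 0.724 in GFP libraries. Every library with TGFB lay below every library without it, and the share of all genes that did so was not counted. The fall of Mrc1 was therefore larger than that of Csf1r in the same libraries.

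Over all genes tested, the log2 ratio to Csf1r was compared between groups with limma. Mrc1 was lower relative to Csf1r by -2.28 (SE 0.40, limma adjusted p = 7.38e-07) in GFP + TGFB against GFP cultures and by -1.94 (SE 0.40, limma adjusted p = 3.3e-05) in Cre + TGFB against Cre cultures. It was the 1 of 8 other members called in each comparison, where 35.4% and 35.9% of all genes were called.

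Fcgr3 went the other way. It had 0.49 to 0.563 counts per Csf1r count in GFP + TGFB and 0.491 to 0.556 in Cre + TGFB libraries, against 0.283 to 0.425 in Cre, 0.262 to 0.393 in Hyal2 and 0.309 to 0.448 in GFP libraries. Libraries with and without TGFB did not overlap, and the share of all genes with such a separation was not counted. Csf1r itself was lower with TGFB, while the median log2 fold change over all genes was -0.02 in GFP + TGFB against GFP cultures. A gene that changed little therefore also rises relative to Csf1r, and with the block 80.2% of all genes were called in this comparison. Its log2 ratio to Csf1r was higher by 0.53 in GFP + TGFB against GFP cultures (limma adjusted p = 0.259, and 0.000803 with the isolate as a block). In Cre + TGFB against Cre cultures it was higher by 0.57 (limma adjusted p = 0.221, and 0.000396 with the block).

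With the block, Cd14 and C1qa were also lower relative to Csf1r, which made 4 of 8 members in each comparison, where 80.2% and 81.5% of all genes were called. Cd14 was lower by -0.40 and C1qa by -0.25 in GFP + TGFB against GFP cultures (limma adjusted p = 0.00386 and 0.0354), and by -0.55 and -0.46 in Cre + TGFB against Cre cultures (limma adjusted p = 0.000236 and 0.000456). Ptprc, Cd68, Adgre1 and Lyz2 were within 0.25 log2 units of Csf1r in each comparison and were not called with or without the block. Lyz2, for example, had 11.5 to 14.3 counts per Csf1r count in GFP + TGFB libraries and 11.4 to 12.5 in GFP libraries.

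**Figure D4:**
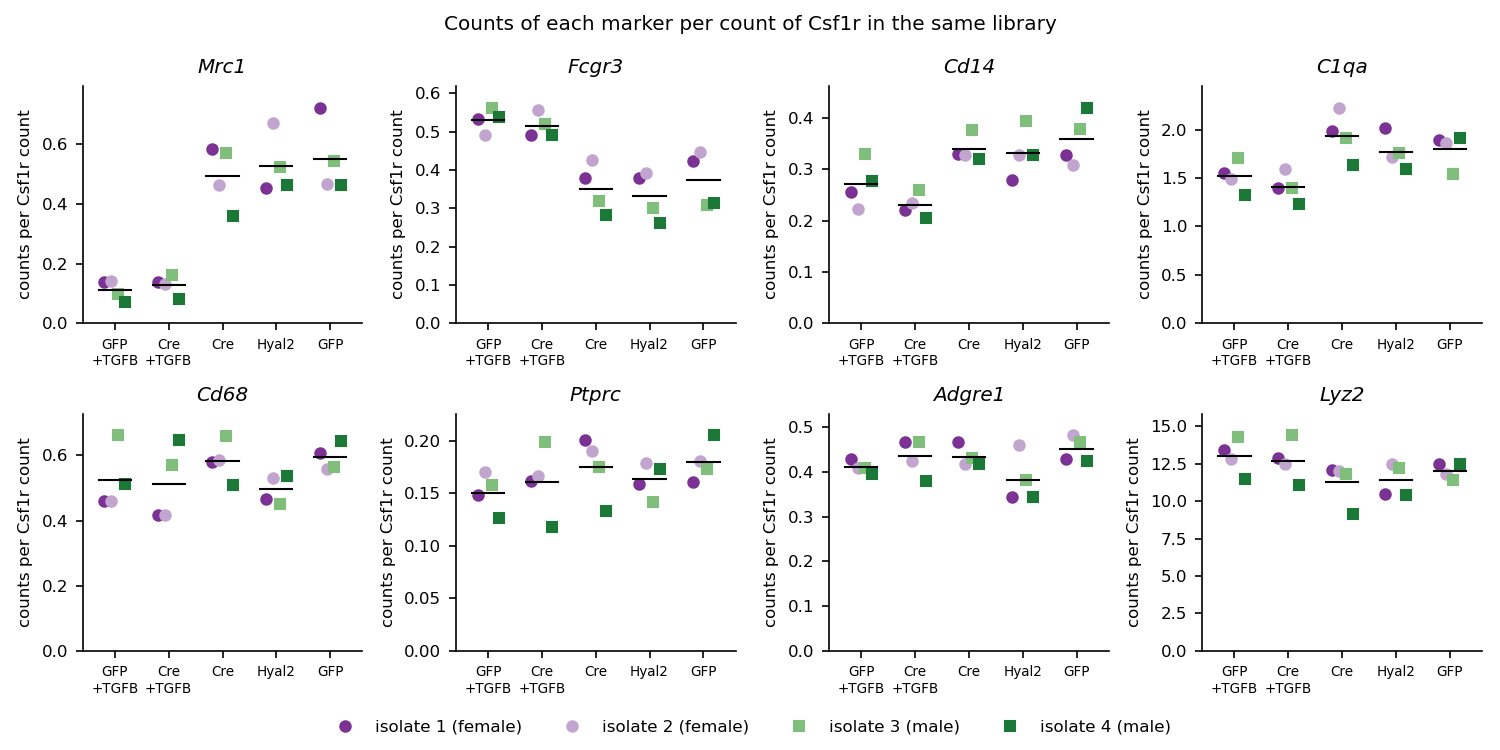
Counts of each marker per count of Csf1r in the same library (vertical axis, from 0), by group. Points are libraries coloured by isolate and bars are group means; Mrc1 lies at 0.0723 to 0.161 with TGFB and 0.361 to 0.724 without it, and Fcgr3 at 0.49 to 0.563 with TGFB and 0.262 to 0.448 without it.

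Many myeloid genes share binding sites for the transcription factor PU.1, encoded by Spi1. The sequence GAGGAA, which on the opposite strand reads TTCCTC, was searched as a form of such a site. Sites of any other form were not counted. Spi1 averaged 1.54 ± 0.393 CPM in GFP + TGFB and 2.99 ± 1.48 CPM in GFP cultures (SD, n = 4 each), differing by -0.96 on the log2 scale (edgeR adjusted p = 0.0514, and 4.07e-05 with the isolate as a block). The 250 bases before the start site were read from RefSeq promoter sequences of the build GRCm38.p6, which held 6 of the 10 members (Ptprc, Cd68, Mrc1, Lyz2, Fcgr3 and Cd163). GAGGAA was found on either strand for Ptprc, Cd68, Mrc1 and Fcgr3, 4 of these 6, against 25.9% of all genes with such a window. Shown are the member that fell most with TGFB (Mrc1, chr2:14229164-14229413, plus strand), the member that moved least (Fcgr3, first start site, chr1:171059404-171059653, minus strand) and a member between them (Cd68, chr11:69666171-69666420, minus strand), each 5′ to 3′ on the strand of the gene, with the matches in capitals.
Mrc1: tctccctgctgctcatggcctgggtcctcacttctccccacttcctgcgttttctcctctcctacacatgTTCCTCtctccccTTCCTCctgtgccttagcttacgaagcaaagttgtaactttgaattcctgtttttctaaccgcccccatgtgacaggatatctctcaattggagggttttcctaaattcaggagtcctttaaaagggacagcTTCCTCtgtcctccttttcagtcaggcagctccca
Fcgr3: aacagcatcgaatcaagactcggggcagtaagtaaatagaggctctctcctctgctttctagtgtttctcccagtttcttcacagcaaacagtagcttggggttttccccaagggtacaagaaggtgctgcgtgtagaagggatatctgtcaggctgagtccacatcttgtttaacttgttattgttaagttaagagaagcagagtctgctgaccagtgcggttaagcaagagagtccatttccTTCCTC
Cd68: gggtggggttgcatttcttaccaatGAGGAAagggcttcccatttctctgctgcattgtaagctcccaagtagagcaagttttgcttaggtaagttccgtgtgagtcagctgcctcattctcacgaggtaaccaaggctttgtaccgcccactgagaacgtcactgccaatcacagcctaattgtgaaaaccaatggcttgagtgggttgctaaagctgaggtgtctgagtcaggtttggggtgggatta
Mrc1 held 3 matches, Fcgr3 1 and Cd68 1, with no overlap among those of Mrc1. A match describes these letters and is neither a bound site nor a cause.

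Other myeloid genes were read in lists chosen by cell type. Of the 32 wider myeloid genes, 14 fell and 2 rose in GFP + TGFB against GFP cultures, with a median log2 fold change of -0.89, where 28.6% of all genes fell and 26.6% rose. With the isolate as a block 28 fell and 2 rose, where 32.1% of all genes fell. In Cre + TGFB against Cre cultures 19 fell and 2 rose, where 29% of all genes fell and 27.5% rose. These shares of all genes are also the background of the lists that follow. Mpeg1, a pore-forming protein of phagocytes, averaged 18.8 ± 6.15 CPM in GFP + TGFB and 35 ± 9.93 CPM in GFP cultures (SD, n = 4 each; log2 fold change -0.90, edgeR adjusted p = 0.00945). C1qb, a further chain of C1q, averaged 17 ± 7.73 CPM in GFP + TGFB and 33.9 ± 13.7 CPM in GFP cultures (SD, n = 4 each), and passed with the block alone (edgeR adjusted p = 0.0566 without and 5.59e-07 with it). Lcp1, an actin-bundling protein of leukocytes, had a log2 fold change of -1.34 (edgeR adjusted p = 0.00045), and C3ar1, the receptor for the complement fragment C3a, of -1.01 (edgeR adjusted p = 0.00041).

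Among the genes that rose, Clec7a, which encodes the beta-glucan receptor dectin-1, rose by 1.57 on the log2 scale in GFP + TGFB against GFP cultures with an edgeR adjusted p of 0.00604, and by 1.56 in Cre + TGFB against Cre cultures with 0.00498. Which cells in the cultures made this transcript was not measured.

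Of 12 genes of resident macrophages, 9 were tested, of which 6 fell and 1 rose in GFP + TGFB against GFP cultures (28.6% and 26.6% of all genes), and likewise 6 and 1 in Cre + TGFB against Cre cultures (29% and 27.5% of all genes). Pf4, a chemokine made by platelets and resident macrophages, had a log2 fold change of -2.73 (edgeR adjusted p = 7.64e-06), close in size to that of Mrc1. F13a1, coagulation factor XIII chain A, was at -2.26 (edgeR adjusted p = 2.75e-05), and the transcription factor gene Maf was at -1.95 (edgeR adjusted p = 4.44e-06). Mertk, a receptor for the uptake of dead cells, was the gene that rose, by 0.45 on the log2 scale (edgeR adjusted p = 0.000976), and by 0.65 in Cre + TGFB against Cre cultures (edgeR adjusted p = 2.56e-05). Over the GFP libraries Mertk spanned 10 to 11.2 CPM, where Csf1r spanned 11.5 to 26.6 CPM. Which cells made the Mertk transcript was not measured. Timd4 and Cd209f reached at most 1 count in any library, Vsig4 at most 10 and Lyve1 at most 32.

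The list of 8 genes of monocytes and recruited macrophages was mixed. Ccr2 had at most 5 counts and Ly6c2 at most 2 counts in any library, and Chil3 was above the floor in 4 of 20 libraries, with 211 counts in the highest. Itgax and Cd86 were above the floor in all 20 libraries, at up to 1 and 0.911 CPM, and neither passed in GFP + TGFB against GFP cultures (edgeR adjusted p = 0.771 and 0.113, and 0.00922 for Cd86 with the isolate as a block). Fn1, the fibronectin gene, which fibroblasts express strongly, held 9949 CPM or more in every library. S100a4 and Plac8 differed by -2.74 and -1.28 on the log2 scale in GFP + TGFB against GFP cultures (edgeR adjusted p = 3.08e-12 and 0.000817), but fibroblasts also express S100a4, and it stood at 245 to 288 CPM in GFP libraries, with Plac8 at 76 to 141 CPM. Of 7 MHC class II genes 5 were tested and 3 fell, with H2-Ab1 at 0.586 ± 0.1 CPM in GFP + TGFB and 1.77 ± 0.647 CPM in GFP cultures (SD, n = 4 each; log2 fold change -1.59, edgeR adjusted p = 0.000383). T cell, B cell and NK cell genes together held at most 1.08 CPM in any library, and the neutrophil list at most 1.19 CPM, with Ly6g at 1 count or less. In the cultures without TGFB most of the neutrophil sum was Camp, which encodes an antimicrobial peptide of neutrophils and other cells. Camp had 1 to 2 counts per library in GFP + TGFB cultures, against 19 to 55 counts in GFP cultures, and was called lower (edgeR adjusted p = 5.33e-07). In Cre + TGFB cultures it had 0 to 3 counts, against 26 to 100 counts in Cre cultures (edgeR adjusted p = 1.56e-07).

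Ligands of macrophage receptors moved in both directions. Of 11 such genes 9 were tested, of which 3 rose and 6 fell in GFP + TGFB against GFP cultures. Csf1, the main ligand of Csf1r, averaged 2220 ± 63.5 CPM in GFP + TGFB and 936 ± 91.6 CPM in GFP cultures (SD, n = 4 each; log2 fold change 1.25, edgeR adjusted p = 5.18e-11). Il34, the other ligand of Csf1r, averaged 3.34 ± 0.4 CPM in GFP + TGFB and 10.5 ± 3.09 CPM in GFP cultures (log2 fold change -1.64, edgeR adjusted p = 0.000102). The 2 ligands of the same receptor thus moved in opposite directions, with Csf1 at the far higher count.

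Cd200, which encodes a surface ligand that restrains myeloid cells, averaged 39.3 ± 7.91 CPM in GFP + TGFB and 9.84 ± 3.44 CPM in GFP cultures (SD, n = 4 each; log2 fold change 1.99, edgeR adjusted p = 3.61e-05). The monocyte chemokine genes Ccl7 and Ccl2 fell, by -3.01 and -1.48 on the log2 scale (edgeR adjusted p = 4.73e-12 and 4.83e-07). Gas6, a ligand of the receptor Mertk, averaged 203 ± 20.5 CPM in GFP + TGFB and 816 ± 320 CPM in GFP cultures (log2 fold change -2.01, edgeR adjusted p = 1.69e-05). Pros1, another ligand of Mertk, and Cd47, which encodes a surface signal against phagocytosis, were at -1.04 and -1.17 (edgeR adjusted p = 1.37e-08 and 2.66e-06). In Cre + TGFB against Cre cultures 2 of the 9 rose and 6 fell, with Csf1 at 1.08 and Il34 at -1.75 on the log2 scale (edgeR adjusted p = 3.62e-10 and 4.35e-05).

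Genes of the lysosome that many cell types share were read beside Cd68 and Lyz2. Of 13, 6 fell and 1 rose in GFP + TGFB against GFP cultures, where 28.6% of all genes fell and 26.6% rose, with log2 fold changes between -0.53 and 0.28 and a median of -0.21. The decrease of Cd68 was thus outside the range of these shared genes, and that of Lyz2 just below its lower end. In Cre + TGFB against Cre cultures the range was -0.71 to 0.26, with Cd68 again outside it and Lyz2, at -0.53, inside. These comparisons were made without a test.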

How the data were processed

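RNA was measured in 20 libraries of cultured cardiac fibroblasts. Per the labels' protocols, Trizol-extracted, DNase-treated total RNA was made into NEBNext Ultra II libraries, and the submitters' processing notes name FastQC 0.10.1, HTSeq 0.10.0 and the build GRCm39. The values deposited by the authors are raw counts for each Ensembl identifier, without scaling. Which aligner, annotation and strand setting were used is not given in the sources used here. Symbols came from a GRCm38 annotation (52081 of 55414 identifiers), and IDs without a symbol held 0.215% to 0.568% of a library. No columns of unmapped samples were used, and 30 replicate pairs differed beyond sampling noise (chi-square per degree of freedom at least 8.81).

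Counts were fitted with edgeR 4.0.16 in R 4.3.3 (robust quasi-likelihood F test, TMM factors, filterByExpr with minimum count 10 in at least 4 libraries and minimum total 15), with a mean per group over all 20 libraries and no block. This left 15624 of 31062 genes with any count. A call means an adjusted p below 0.05 (Benjamini-Hochberg, over every gene in the fit). Isolates were tested with 3 coefficients beside the groups. DESeq2 1.42.0, limma-voom (limma 3.58.1), RLE factors, no filter, the replicate block and the removal of each library or isolate were alternatives. The ratio to Csf1r was compared with limma on log2 CPM (prior count 2) minus that of Csf1r, a step added after the values were seen. The tests were tested on simulated data. The simulated counts for the group test had a single dispersion and no differences between isolates, so they say nothing of its power or error in these data.

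Same-numbered libraries deviated together from their group means (r from 0.11 to 0.71 over 40 pairs of libraries, against -0.61 to 0.44 over 120 pairs of different number), and their library names share a prefix, so the numbers were taken to pair the libraries. Nothing says that replicates were separate animals, so p-values measure the spread between these samples, which may be partly technical. Intervals and floors cover counting error only where they come from counts. The members and lists were chosen with earlier results of these data known. Genes named outside the 10 members were drawn from the 3 of highest mean CPM and the 3 of smallest p in GFP + TGFB against GFP of each list, and from those most like the members. Clec7a, Spi1, Cd200, Il34, Ccl2, Cd47, Lyve1, Itgax, Chil3 and the genes near 0 counts were named after their values were seen. Some genes that this rule names are not reported here.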

Additional observations from a re-analysis of the deposited data

How the results depend on the processing

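In GFP + TGFB against GFP cultures 5 members were called, against 8 with the replicate block, which pairs libraries of the same isolate, and 3 with no filter on low counts. In Cre + TGFB against Cre cultures 4 were called, against 8 with the replicate block and 3 with no filter, where C1qa was lost. With a library or an isolate left out the count ran from 3 to 7 in both comparisons. In the GFP comparison it was 3 without GFP replicate 1 or 2, without GFP + TGFB replicate 3 or 4 and without isolate 2 or 3, and in the Cre comparison it was 7 without Cre + TGFB replicate 1; the cause was not tested. Where a group was left with 3 libraries, the fit pooled the spread over all groups. DESeq2 called 6 members in the GFP and 5 in the Cre comparison, and limma-voom called 4 in each. Apart from the replicate block, the shares of all genes called under these alternatives are not given here, so their counts have no background to be read against. Mrc1, Cd14 and Cd68 were called in both comparisons under every one of these settings. The 0 calls in the Hyal2 comparisons and the 9 of 9 between isolates were the same under every setting run, and no direction of a called member was reversed. The block changed no call in the comparisons of viruses. Depth limits Cd163, at 0 to 3 counts, and leaves Ptprc at 34 counts in its lowest library.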

Other observations

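Schwann cells and pericytes were read as further cell types the cultures could hold. The Schwann cell genes together held 3.78 to 5.64 CPM in GFP + TGFB libraries and 12.7 to 19.3 CPM in GFP libraries, without overlap, and 2 of their 4 tested genes fell by the edgeR test while none rose. The pericyte genes held 98.2 to 109 CPM in GFP + TGFB and 97.5 to 167 CPM in GFP libraries, and of their 5 genes 2 fell and 1 rose. The fibroblast list itself had 8 of 12 genes that fell and 2 that rose, where 28.6% and 26.6% of all genes did, among the falls Pdgfra, with a log2 fold change of -2.73 (edgeR adjusted p = 2.06e-15), so that the decrease of the macrophage genes stood among decreases of several lists. Cardiomyocyte genes held at most 4.67 CPM in any library.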
